A study of Mus musculus with 12 samples.

Results

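The genes described here are 36 mouse genes of DNA repair and of the DNA damage checkpoint, measured by array in activated T cells cultured with or without azacitidine (AzaC). They were chosen by name. A gene counted as measured where a row of the deposited table carried its symbol and no other, and the brightest such row over the 12 arrays was used. This held for 33 of the 36 members, among 22180 genes in all. Rad54b and Fanca stood only on rows that carried a second symbol, so they were left out, and Xrcc2 was not analysed here. The measured members fell into 5 roles: 6 damage kinases and checkpoint genes, 11 homologous recombination genes, 7 Fanconi anaemia genes, 4 end joining genes, and 5 genes of base excision, single-strand break and mismatch repair.

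Cells answer a DNA break or a stalled replication fork through the kinases Atm and Atr, which activate Chek2 and Chek1 and hold the cell cycle. Homologous recombination copies the broken stretch from a sister chromatid, while end joining with the Ku proteins Xrcc5 and Xrcc6 ligates the ends directly. The Fanconi anaemia proteins unhook crosslinks between strands, and Parp1, Parp2, Xrcc1 and Lig3 mend single-strand breaks. AzaC, an analogue of cytidine, enters newly made RNA and DNA, and in DNA it traps DNA methyltransferases. Activated T cells divide fast, and many recombination and Fanconi genes are transcribed mainly in dividing cells.

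The 4 groups of 3 arrays were CD4 effector T cells (CD4 cells here) and natural regulatory T cells (nTregs), each treated with 1 µM AzaC or given PBS. The protocol text takes nTregs from B6.Foxp3GFP spleens and the effector cells, depleted of Tregs, from a cross of that line with B6.CAGDSRED, although the strain entry of all 12 samples names the cross, with its DsRed transgene as Cg-Tg(CAG-DsRed*MST)1Nagy/J. In it, GFP reports Foxp3 and DsRed marks the effector cells. Both kinds of cell were grown together, 1 part nTregs to 10 parts effector cells, for 2 days under stimulation by anti-CD3/CD28 beads and 500 U/mL interleukin-2, then for 2 days with AzaC or PBS. The sort took nTregs as CD4+, DsRed negative and Foxp3 reporter positive, and CD4 cells as CD4+, DsRed positive and reporter negative, so both treatments and both populations share activation, interleukin-2 and co-culture. The labels give no age, and they do not say whether the 3 samples of a group came from separate mice or cultures, so the p-values measure only the spread between these samples, which may be technical. The comparisons reuse the same 4 groups: the AzaC comparison in CD4 cells and the comparison of populations under PBS, for example, share the CD4 PBS arrays.

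Foxp3, the transcription factor that defines Tregs, was higher in nTregs than in CD4 cells by 4.29 on the log2 scale under PBS and by 3.08 with AzaC. Cd4, the co-receptor used in the sort, was above 10 on the log2 scale in all groups and lower in nTregs by 0.83 under PBS (0.40 with AzaC, not passing). Array medians lay between 6.67 and 6.80, and every member value was at or above 6.18, while the lowest 5% of values on an array ended at 3.94 to 4.19. The array nTreg PBS 1 stood apart: it correlated with the others at 0.973 on average (0.979 to 0.987 for the rest), and of the 12 arrays it lay farthest from its group mean for 15 of the 33 members. Mean levels of B cell, myeloid, NK and erythroid marker lists lay between 5.86 and 6.94 in all arrays. The group means of the member Fancc, 6.38 to 6.67, all lay in that range and below the median gene mean of 6.96.

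Sequence near the start of the genes was read from RefSeq promoter windows (build GRCm38.p6), 250 bases before to 50 after a gene's start, the first window listed for a gene. Of the 33 measured members, 29 had a window; Exo1, Fancd2, Nbn and Rad50 had none. Exact letters were searched on both strands, each motif on its own so that matches may overlap. The E2F-like letters TTTCCCGC stood in 6 of the 29 windows (20.7%), against 250 of the 16990 windows of tested genes (1.47%). Member windows were also richer in CG, the dinucleotide that DNA methyltransferases act on, with a median of 22 per window against 13, and among all windows with at least 22 CG the letters TTTCCCGC stood in 2.96%. The 6 matches, chosen for display after the search, are shown as 30 bases each, with the motif in capitals and read on the strand that holds it.
Brca2: gtgtgtgtctgTTTCCCGCtgtggcctaaa
Xrcc6: gcccactcgcaTTTCCCGCttccaccccct
Bard1: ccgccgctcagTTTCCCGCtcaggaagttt
Chek2: cgacgtcttggTTTCCCGCggctaatcccg
Fancg: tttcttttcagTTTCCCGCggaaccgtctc
Msh6: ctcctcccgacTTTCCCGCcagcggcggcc
The stretches lie at chr5:150522442-150522471 (minus strand, Brca2), chr15:82016312-82016341 (minus, Xrcc6), chr1:71103163-71103192 (minus, Bard1), chr5:110839820-110839849 (minus, Chek2), chr4:43010335-43010364 (minus, Fancg) and chr17:87975054-87975083 (plus, Msh6). The motif began 168, 46, 209, 152 and 52 bases before the start of Brca2, Xrcc6, Bard1, Chek2 and Fancg, and at base 16 of the Msh6 transcript. A match of letters is a description and not a measured binding site.

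The letters TTTGGCGC and TTTCGCGC were in 0 member windows (0.736% and 0.418% of all windows), TTTGGGAA in that of Rad54l alone (3.45% against 1.71%), and TTTGAA, a run of letters found in cell cycle promoters, in that of Bard1 alone (3.45% against 15.8%). CCAAT, the letters bound by NF-Y, stood in 16 of 29 windows (55.2%, against 38.5%). Ddias was called in 3 of the 5 comparisons described below and Blm and Fancd2 in 2 each. Ddias and Blm held CCAAT, while Fancd2 had no window. The windows of Ddias, Blm and some other members were set on a start inside the annotated span of the gene. They need not be the main promoter. Atr, the member with the smallest adjusted p among those called in 1 comparison, held TTCGAA (1.76% of all windows). Their matches are shown in the same way.
Ddias: ctttcaggagagCCAATcagaaaacgccct
Blm, nearer match: ttcagggattacCCAATcagaatcatcctt
Blm, farther match: tgaaggatctaaCCAATaccgtggcctctg
Atr: ttaaatatgccaTTCGAAcatagtgaaata
They lie at chr7:92874268-92874297 (plus strand, Ddias), chr7:80535142-80535171 (minus, Blm), chr7:80535168-80535197 (plus, Blm) and chr9:95857370-95857399 (plus, Atr), and the motifs begin 37, 161, 186 and 215 bases before the start used.

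Across the 4 groups, most members were lower in nTregs than in CD4 cells, and few were called between AzaC and PBS. A member is called here where its Benjamini-Hochberg adjusted p from limma, over all 22180 genes, was under 0.05. Differences are on the log2 scale of the RMA signal, where 1 is a 2-fold difference. The CD4 PBS group held the highest of the 4 group means for 15 members and the nTreg PBS group the lowest for 16. Over all genes these groups held the highest mean for 25.9% and the lowest for 22.8%. The counts without nTreg PBS 1 were 16 (27.2% of all genes) and 15 (21.5%). In bulk RNA, fewer cells that express a gene and less RNA per cell cannot be told apart.

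**Figure D1:**
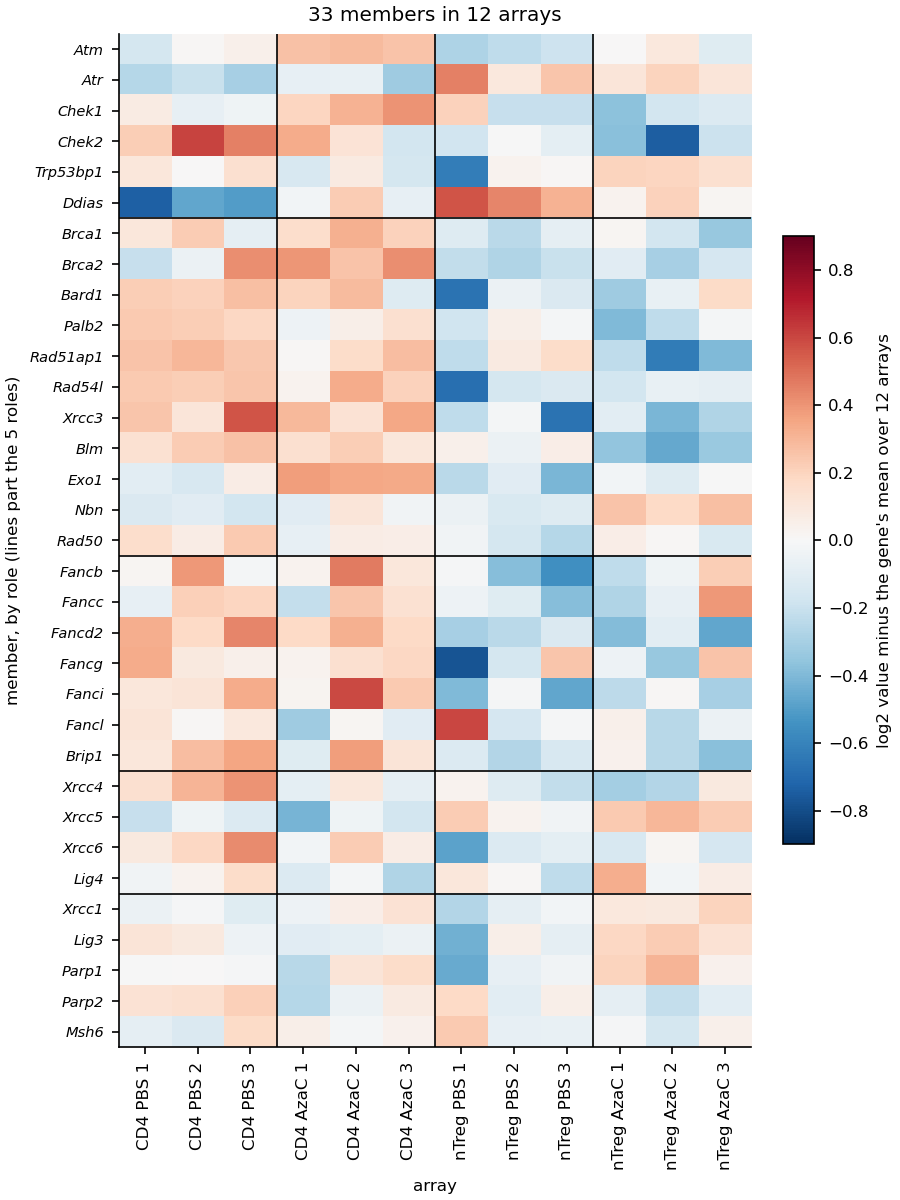
Signal of each of the 33 measured members (rows, grouped by role) in each of the 12 arrays (columns), as the log2 value minus the gene's mean over the 12 arrays. Most recombination and Fanconi rows have lower means in nTregs than in CD4 cells under each condition, though single arrays depart from this in many rows. Ddias is lowest in CD4 cells under PBS, and nTreg PBS 1 departs from its group for several genes.

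Under PBS, 6 of the 33 members differed between nTregs and CD4 cells (18.2%, against 8.01% of all genes), and the group values of 19 did not overlap (26.7% of all genes). Lower in nTregs were Fancd2, Rad54l, Xrcc3 and Xrcc6 (4.12% of all genes were called lower), and higher were Ddias and Atr (3.90% of all genes were called higher). Of the 33 members, 27 had a difference below 0 (81.8%, against 45.5% of all genes), with a median of −0.26 against 0.03 for all genes. At an unadjusted p under 0.05 stood 14 members, 12 of them lower (42.4%, against 23.0% of all genes). Without nTreg PBS 1, 28 differences were below 0, the median was −0.20, and 24 members did not overlap (37.4% of all genes). Called were then Atr, Ddias, Fancb, Fancd2, Rad54l and Xrcc3, with Fancb gained and Xrcc6 lost, where 7.25% of all genes were called.

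With AzaC, 7 of the 33 members differed between the populations (21.2%, against 6.75% of all genes). Blm, Fancd2, Rad51ap1, Chek1, Brca2 and Exo1 were lower in nTregs (2.19% of all genes were called lower), and Xrcc5 was higher (4.57% of all genes were called higher). The values of 17 members did not overlap (32.3% of all genes). Differences below 0 were found for 23 members (69.7%, against 57.7% of all genes), with a median of −0.19 against −0.04 for all genes. That median was −0.11 without nTreg AzaC 1 and without CD4 AzaC 2. At an unadjusted p under 0.05 stood 18 members, 14 of them lower (54.5%, against 20.5% of all genes). Without nTreg PBS 1, which enters only through the shared estimate of spread, 9 members were called, with Brca1 and Chek2 added, while the share of all genes called rose from 6.75% to 11.1%. Fancd2 was the only member called under both conditions. Cd8a and Cd8b1, markers of CD8 T cells, were higher in nTregs with AzaC (by 1.36 and 1.27) and did not pass under PBS (0.00 and 0.27). Cd79b, a part of the B cell receptor, was higher in nTregs by 0.80 under PBS and by 1.08 with AzaC (adjusted p = 0.00691 and 0.000716), and the other B cell markers measured (Cd79a, Ms4a1 and Pax5) passed in neither. The part of these markers in the member results was not tested.

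**Figure D2:**
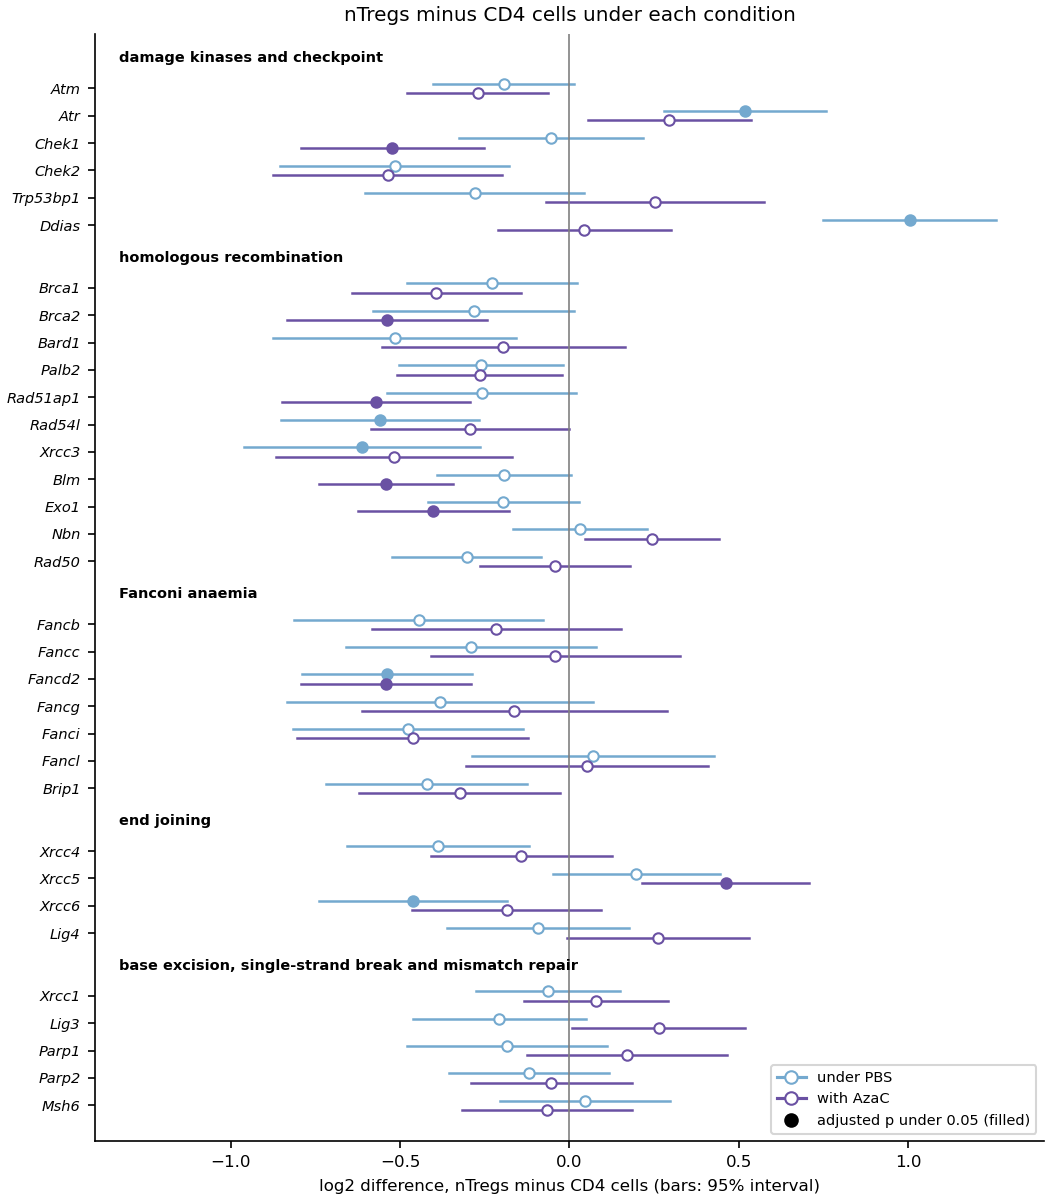
Log2 difference of nTregs minus CD4 cells for each of the 33 members, under PBS and with AzaC, as points with 95% intervals (limma, 3 arrays a group); filled points passed an adjusted p under 0.05. Under PBS 27 of 33 points lie below 0 (45.5% of all genes do) and with AzaC 23 of 33 (57.7% of all genes); Ddias stands at 1.00 under PBS and near 0 with AzaC.

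Ddias (DNA damage-induced apoptosis suppressor, also called noxin) is a protein that protects cells from apoptosis after DNA damage. It showed the largest difference between populations among the members. Its values were 9.60, 9.48 and 9.35 in the nTreg PBS arrays and 8.30, 8.57 and 8.54 in the CD4 PBS arrays, all 3 nTreg values above all 3 CD4 values. It was 2.01-fold higher in nTregs (log2 difference 1.00, SE 0.12, adjusted p = 0.000117). This call was kept under every alternative and without each array (adjusted p 1.45e-05 to 0.00511). With AzaC the values were 9.07, 9.25 and 9.06 in nTregs and 9.01, 9.26 and 8.97 in CD4 cells, and the groups overlapped.

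Atr, the kinase that senses stalled forks, read 8.51, 8.15 and 8.30 in nTregs under PBS and 7.80, 7.85 and 7.75 in CD4 cells. The nTreg arrays were all higher (difference 0.52, SE 0.11, adjusted p = 0.0115). A second row for Atr, dimmer on average (6.60 against 8.05), showed −0.32 in the same comparison, and the mean over both rows gave 0.10 (adjusted p = 0.696), so the direction for Atr depends on the row used. With AzaC, the brighter row gave 0.29 and did not pass. Fitting only the 2 groups compared gave an adjusted p of 0.0726 for the same difference.

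Chek1, the kinase that Atr activates, read 8.29, 8.49 and 8.53 in nTregs with AzaC and 8.85, 8.97 and 9.06 in CD4 cells with AzaC. All nTreg values were lower (difference −0.52, SE 0.13, adjusted p = 0.0220). Under PBS the populations overlapped for Chek1 (difference −0.05, and −0.19 without nTreg PBS 1). The call with AzaC was lost without CD4 AzaC 2 (adjusted p = 0.0584), CD4 AzaC 3 (0.0962), nTreg AzaC 1 (0.110) or nTreg AzaC 2 (0.0551). Chek2, the kinase activated by Atm, had differences of −0.52 under PBS and −0.54 with AzaC, with no overlap in either, and passed in neither (adjusted p = 0.0616 and 0.0583). Atm itself, at −0.19 and −0.27, did not pass in either, nor did Trp53bp1, the 53BP1 protein that favours end joining, at −0.28 (−0.07 without nTreg PBS 1) and 0.25.

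Among the homologous recombination genes, 10 of 11 had a difference below 0 under each condition, with Nbn, a subunit of the break-sensing Mre11 complex, as the exception in both. Blm, the helicase mutated in Bloom syndrome, read 9.50, 9.39 and 9.52 in nTregs with AzaC and 10.00, 10.07 and 9.96 in CD4 cells with AzaC. The groups lay well apart (difference −0.54, SE 0.09, adjusted p = 0.00219), and this call was kept under every alternative and without each array (adjusted p 0.000358 to 0.0156). Under PBS the difference for Blm was −0.19, also without overlap, and did not pass (adjusted p = 0.230).

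Rad51ap1, an accessory protein of homologous recombination, read 8.69, 8.29 and 8.53 in nTregs with AzaC against 8.93, 9.09 and 9.20 in CD4 cells. All nTreg values were lower (difference −0.57, SE 0.13, adjusted p = 0.0155). That call was lost without CD4 AzaC 3 (adjusted p = 0.0765), nTreg AzaC 2 (0.0827) or nTreg AzaC 3 (0.0527). Brca2, a breast cancer susceptibility gene that acts in recombination, read 8.77, 8.58 and 8.72 against 9.27, 9.13 and 9.29 (difference −0.54, SE 0.14, adjusted p = 0.0297). The groups did not overlap for Brca2 with AzaC, but under PBS 1 CD4 array (9.29) lay far above the other two (8.66 and 8.82). The Brca2 call was lost without CD4 AzaC 1 (0.108), CD4 AzaC 3 (0.105), nTreg AzaC 1 (0.0652), nTreg AzaC 2 (0.119) or nTreg AzaC 3 (0.0833), and with each array centred on its median (0.0581).

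Exo1, the nuclease that resects break ends, read 8.77, 8.68 and 8.80 in nTregs with AzaC and 9.17, 9.14 and 9.14 in CD4 cells with AzaC. Every nTreg value was lower (difference −0.40, SE 0.10, adjusted p = 0.0319). Leaving out any 1 of the 6 AzaC arrays ended that call (adjusted p 0.0695 to 0.120), as did centring each array on its median (0.0617). Rad54l, a motor protein that helps strand exchange, read 7.16, 7.68 and 7.71 in nTregs under PBS and 8.08, 8.06 and 8.09 in CD4 cells. Its groups lay apart too (difference −0.56, SE 0.14, adjusted p = 0.0220), with nTreg PBS 1 the lowest, and without that array the difference was still called. The Rad54l call was lost without CD4 PBS 1, 2 or 3 (adjusted p = 0.0611, 0.0618 and 0.0660) and in a fit of those 2 groups alone (0.116). With AzaC its difference was −0.29, without overlap, and did not pass.

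Xrcc3, a gene of homologous recombination, read 8.62, 8.83 and 8.18 in nTregs under PBS and 9.10, 8.96 and 9.42 in CD4 cells. The lowest CD4 array lay above the highest nTreg array (difference −0.61, SE 0.16, adjusted p = 0.0332). The Xrcc3 call was lost without CD4 PBS 1 (adjusted p = 0.0693), CD4 PBS 3 (0.137) or nTreg PBS 3 (0.0948), with repeated quantile normalization (0.101), with array weights (0.0674) and in a fit of those 2 groups alone (0.145). With AzaC the difference was −0.52 (adjusted p = 0.0763). The breast cancer susceptibility gene Brca1 stood at −0.23 and −0.39 under PBS and with AzaC, its partner Bard1 at −0.52 (−0.33 without nTreg PBS 1) and −0.20, and the bridging protein Palb2 at −0.26 and −0.27. None of these passed in either condition.

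Among the 7 Fanconi anaemia genes, Fancd2, whose ubiquitination marks the crosslink response, was the member called. It read 8.13, 8.18 and 8.29 in nTregs under PBS and 8.75, 8.60 and 8.86 in CD4 cells (difference −0.54, SE 0.12, adjusted p = 0.0118). With AzaC the values were 8.04, 8.33 and 7.96 against 8.60, 8.74 and 8.60 (difference −0.54, SE 0.12, adjusted p = 0.0112). All 6 nTreg arrays lay below all 6 CD4 arrays. The call under PBS was lost without CD4 PBS 3 (adjusted p = 0.0513) and in a fit of those 2 groups alone (0.0513), and the call with AzaC without nTreg AzaC 1 (0.0579) or nTreg AzaC 3 (0.0683). Fanci, its binding partner, had differences of −0.48 and −0.46, and Brip1, a helicase that binds Brca1, of −0.42 and −0.32. Both were below 0 without passing, and 6 of the 7 Fanconi genes were below 0 under each condition, with Fancl, the ubiquitin ligase, above it. The difference for Fancl under PBS turned from 0.07 to −0.16 without nTreg PBS 1.

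The Ku subunits, which form 1 complex, had differences of opposite sign. Xrcc6 (Ku70) read 7.95, 8.31 and 8.34 in nTregs under PBS and 8.52, 8.61 and 8.85 in CD4 cells. The nTreg values were all lower (difference −0.46, SE 0.13, adjusted p = 0.0430). This call was lost without 10 of the 12 arrays, among them CD4 PBS 3 (adjusted p = 0.161) and nTreg PBS 1 (0.130), and was kept without CD4 AzaC 2 or nTreg PBS 3. Array weights (0.0605) and a fit of those 2 groups alone (0.161) also ended it. Xrcc5 (Ku80) read 8.99, 9.05 and 8.99 in nTregs with AzaC and 8.34, 8.72 and 8.59 in CD4 cells. Here every nTreg value was higher (difference 0.46, SE 0.12, adjusted p = 0.0260). The Xrcc5 call was lost without CD4 AzaC 1 (0.125), CD4 AzaC 3 (0.0647) or any of the 3 nTreg AzaC arrays (0.0769 to 0.0943), and with repeated quantile normalization (0.108). Neither subunit passed under the other condition (Xrcc6 −0.19 with AzaC, Xrcc5 0.20 under PBS, 0.12 without nTreg PBS 1). Xrcc4 and Lig4, which ligate the ends, did not pass in either.

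None of the 5 genes of base excision, single-strand break and mismatch repair was called between populations. Their differences ranged from −0.21 to 0.05 under PBS and from −0.07 to 0.26 with AzaC. Msh6, the mismatch sensor that carries TTTCCCGC in its window, had a mean of 10.80 to 10.85 in 3 of the groups and of 10.77 in nTregs with AzaC, and its 4 group means spanned 0.08.

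**Figure D3:**
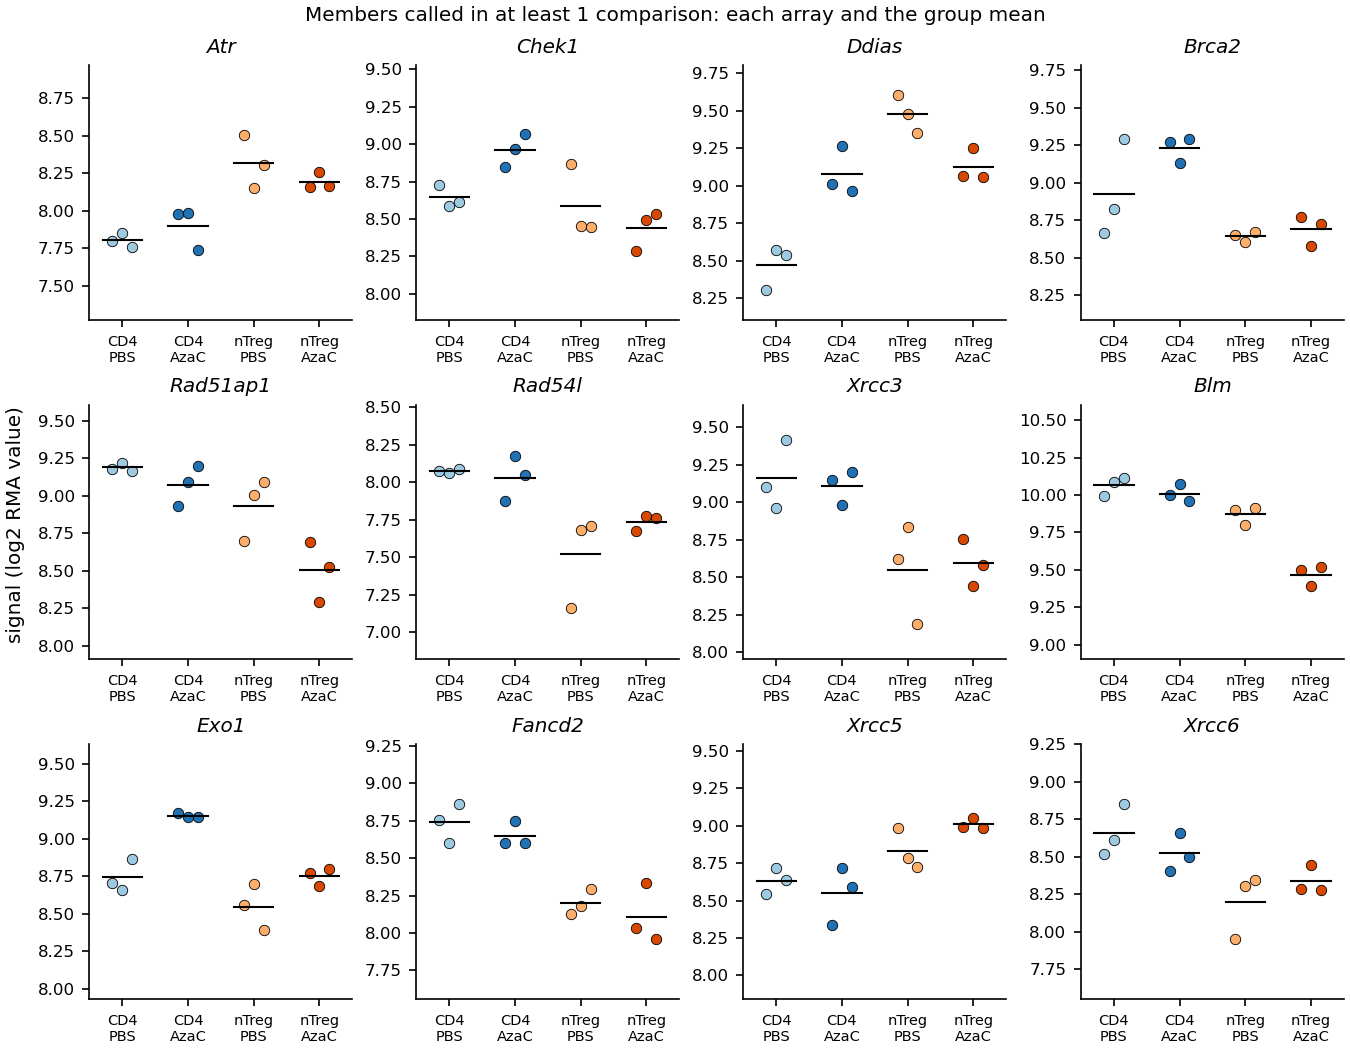
Signal (log2 RMA value) of the 12 members called in at least 1 comparison, as 1 point per array and a bar at the mean of 3 arrays, in CD4 cells and nTregs with PBS or AzaC; all panels span the same range of 1.7 on the y axis. Fancd2 is lower in all nTreg arrays, Blm is lowest in nTregs with AzaC, and Ddias is lowest in CD4 cells under PBS.

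AzaC against PBS gave 1 called member in each population, a different one in each. In nTregs Blm fell (1 of 33, 3.03%, against 2.02% of all genes), and in CD4 cells Ddias rose (1 of 33, against 1.76% of all genes). These shares are near the background. At an unadjusted p under 0.05 stood 10 members in nTregs, 6 higher and 4 lower (30.3%, against 16.8% of all genes), and without nTreg PBS 1 it was 7 (21.2%, against 13.7%). In CD4 cells 7 stood there, 5 higher and 2 lower (21.2%, against 15.2%). Group values did not overlap for 11 members in nTregs (24.5% of all genes) and for 9 in CD4 cells (23.6% of all genes). The median difference was 0.11 in nTregs (all genes −0.04), but 0.03 without nTreg PBS 1, 0.06 without nTreg PBS 3 or nTreg AzaC 1, 0.07 without nTreg AzaC 3, 0.03 with array weights and 0.01 with repeated quantile normalization. In CD4 cells it was −0.05 (all genes 0.01), with 0.01 without CD4 AzaC 1, −0.12 without CD4 AzaC 2, −0.08 without CD4 PBS 1 and −0.03 without CD4 PBS 3. The AzaC differences of the 2 populations, which share no arrays, had the same sign for 17 of 33 members (51.5%, against 44.9% of all genes), and for 16 without nTreg PBS 1.

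Blm read 9.50, 9.39 and 9.52 in nTregs with AzaC and 9.90, 9.80 and 9.91 under PBS. All 3 AzaC values were lower (difference −0.40, SE 0.09, adjusted p = 0.0408). The call lay close to the threshold: it was lost without 10 of the 12 arrays (adjusted p 0.0536 to 0.176), with each array centred on its median (0.0829) and in a fit of those 2 groups alone (0.134). It was kept without CD4 PBS 3 or CD4 AzaC 1. In CD4 cells the AzaC difference for Blm was −0.05, and the difference between these effects, −0.35, did not pass (adjusted p = 0.226). In the same comparison of nTregs, Cd8a and Cd8b1, which mark CD8 T cells, rose by 1.39 and 0.72 (adjusted p = 0.00180 and 0.0213), their mean level going from 8.35 to 8.96 under PBS to 9.62 to 9.75 with AzaC. The myeloid marker Itgam fell by 0.94 (1 of 6 markers of that list called), while Foxp3, Cd4 and Mki67 did not pass. The part of these markers in the member results was not tested.

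Ddias read 9.01, 9.26 and 8.97 in CD4 cells with AzaC and 8.30, 8.57 and 8.54 under PBS. All AzaC values were higher, and the rise was 1.53-fold (difference 0.61, SE 0.12, adjusted p = 0.0176). Without CD4 PBS 1 the adjusted p was 0.0832, without CD4 AzaC 1 it was 0.0534 and without CD4 AzaC 2 it was 0.0680. In nTregs the AzaC difference for Ddias was −0.35, with no overlap (9.07, 9.25 and 9.06 against 9.60, 9.48 and 9.35), and did not pass (adjusted p = 0.161). The effects of AzaC on Ddias differed between the populations (nTregs minus CD4 cells −0.96, SE 0.17, adjusted p = 0.0368). This was the only member so called, where 0.203% of all genes were called. At an unadjusted p under 0.05 stood 5 members (15.2%, against 17.5% of all genes). Without nTreg PBS 1 it was 9 (27.3%, against 16.3%), so this share depends on that array. The Ddias call was lost without 10 of the 12 arrays (adjusted p 0.0626 to 0.130) and with each array centred on its median (0.0552). It was kept without nTreg PBS 1 or 3. In CD4 cells with AzaC, Foxp3 rose by 1.57, and Cd8a (0.03), Cd4 (−0.30) and Mki67 did not pass.

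The largest AzaC differences that did not pass were those of Rad51ap1 and Trp53bp1 in nTregs and of Exo1 and Chek2 in CD4 cells. Rad51ap1 read 8.69, 8.29 and 8.53 with AzaC and 8.70, 9.01 and 9.09 under PBS (difference −0.43, SE 0.13, adjusted p = 0.120), and it was the member called when nTreg PBS 1 was left out, in place of Blm (difference −0.54, adjusted p = 0.0416, with 1.85% of all genes called). Trp53bp1 read 8.99, 8.99 and 8.94 against 8.17, 8.82 and 8.81 (difference 0.37, SE 0.15, adjusted p = 0.231). The lowest value was that of nTreg PBS 1, without which the difference was 0.16. In CD4 cells Exo1 read 9.17, 9.14 and 9.14 with AzaC and 8.70, 8.66 and 8.86 under PBS (difference 0.41, SE 0.10, adjusted p = 0.0660). Exo1 was called, besides Ddias, when nTreg PBS 1 was left out of the shared spread, where 4.71% of all genes were called. Chek2 read 8.21, 7.99 and 7.71 against 8.09, 8.48 and 8.32 (difference −0.33, SE 0.16, adjusted p = 0.342), and its groups overlapped.

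By role, AzaC differences in nTregs ran from −0.35 to 0.37 for the damage kinases and checkpoint genes, from −0.43 to 0.34 for recombination, from −0.23 to 0.30 for the Fanconi genes, from −0.06 to 0.18 for end joining and from −0.18 to 0.37 for the last role. These ranges without nTreg PBS 1 were −0.39 to 0.20, −0.54 to 0.36, −0.13 to 0.46, 0.01 to 0.25 and −0.11 to 0.23. In CD4 cells the ranges were −0.33 to 0.61, −0.16 to 0.41, −0.21 to 0.10, −0.31 to −0.09 and −0.24 to 0.11. All 4 end joining genes were thus below 0 in CD4 cells with AzaC, and none of them passed. Of the single-strand break genes, Parp1 (0.37), Lig3 (0.34) and Xrcc1 (0.25) had higher means with AzaC in nTregs without passing. For each of them nTreg PBS 1 was the lowest PBS array, and without it the differences were 0.23, 0.20 and 0.18. Atm was the 1 damage kinase with no overlap and the same sign in both populations (0.23 in nTregs, 0.30 in CD4 cells), and it passed in neither. Without nTreg PBS 1, 13 members did not overlap between AzaC and PBS in nTregs (36.5% of all genes), 9 above and 4 below.

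**Figure D4:**
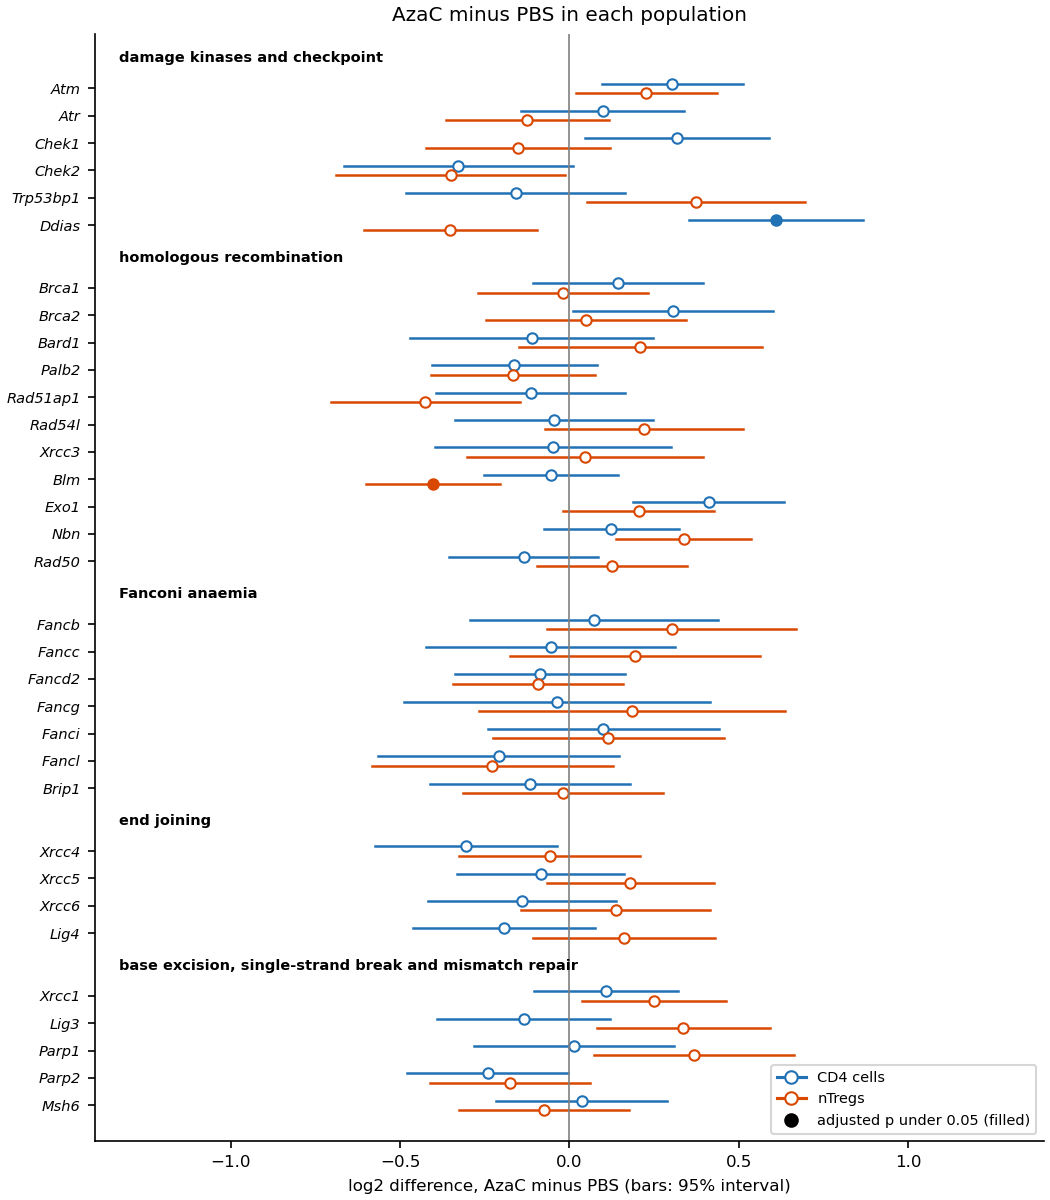
Log2 difference of AzaC minus PBS for each of the 33 members, in CD4 cells and in nTregs, as points with 95% intervals (limma, 3 arrays a group); filled points passed an adjusted p under 0.05. Ddias in CD4 cells (0.61) and Blm in nTregs (−0.40) are the filled points, and the Ddias points of the populations lie on opposite sides of 0.

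The other genes of repair and checkpoint on the array were counted from lists of the members' pathways and of further repair routes. The further lists were nucleotide excision repair, and direct reversal, crosslink and bypass. Tdp1, Mgmt, Polk and Rev1, named below, are from the last of these. Of 113 such genes, 15 were lower and 5 higher in nTregs under PBS (17.7% called, against 8.01% of all genes), and 10 were lower and 2 higher with AzaC (10.6%, against 6.75%). Without nTreg PBS 1 the counts were 11 and 5 under PBS and 18 and 4 with AzaC, with 7.25% and 11.1% of all genes called. The lower ones under PBS included Gen1 (a resolvase of recombination junctions, −0.63), Rpa1 (which coats single strands, −1.03), Tdp1 (which removes trapped topoisomerase, −0.93) and Cdc25c (a phosphatase that starts mitosis, −0.77). Both polymerase Polq (−0.76) and the glycosylase Neil3 (−0.80) were lower in nTregs with AzaC. Mgmt, which removes alkyl groups from guanine, was higher in nTregs under both conditions (0.69 and 0.41).

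With AzaC in CD4 cells, 6 of the 113 were called (5.31%, against 1.76% of all genes). Of these 4 rose, namely the nuclease Dna2 (0.72), Mgmt (0.58) and the bypass polymerases Polk (0.62) and Rev1 (0.76). Mgmt, Polk and Rev1 made up 3 of the 15 direct reversal, crosslink and bypass genes, a route outside the members' roles. Cdc25b (−0.63) and Cdc25c (−0.49) fell in the same comparison. Without nTreg PBS 1 in the shared spread, 7 rose and 5 fell, while the share of all genes called rose from 1.76% to 4.71%. In nTregs 0 rose and Cdc25b fell (−0.73), so that 0.885% were called (2.02% of all genes). For the difference between the effects of AzaC, 0 of the 113 passed in limma (1 without nTreg PBS 1, where 0.311% of all genes were called). At an unadjusted p under 0.05 stood 21 (18.6%, against 17.5% of all genes).

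Between the populations, genes of the cell cycle differed in the same direction as most members. Under PBS, 7 of 22 G1/S and replication genes and 16 of 23 G2/M genes were lower in nTregs than in CD4 cells (31.8% and 69.6%, against 8.01% of all genes called). With AzaC 6 and 14 were lower (27.3% and 60.9%, against 6.75%). Without nTreg PBS 1 the counts were 7 and 13 under PBS and 8 and 17 with AzaC. The shares of all genes called were then 7.25% and 11.1%. Mki67, a marker of cycling cells, was lower in nTregs by 0.41 and 0.45 (adjusted p = 0.0332 and 0.0237). Ttk, a spindle checkpoint kinase, was lower by 0.71 and 0.99, and Rrm2, a ribonucleotide reductase subunit, by 0.71 under PBS. The mean level of the G2/M list lay at 9.96 to 10.15 in nTregs and 10.51 to 10.66 in CD4 cells under PBS, and at 9.82 to 9.85 and 10.25 to 10.48 with AzaC. The mean of the 33 members lay at 8.31 to 8.36 in nTregs and 8.49 to 8.58 in CD4 cells under PBS, and at 8.35 to 8.41 and 8.45 to 8.62 with AzaC. In both conditions no nTreg array reached the lowest CD4 array for either list. The part of the cell cycle in the member results was not tested.

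Between AzaC and PBS in nTregs, 2 of 22 G1/S genes rose (Tk1 by 0.75, Mcm2 by 0.69) and 2 of 23 G2/M genes fell (Bub1 by 0.52, Cenpe by 0.46), 9.09% and 8.70% against 2.02% of all genes called. These counts were 3 and 0 without nTreg PBS 1 (1.85% of all genes called). At an unadjusted p under 0.05, 13 G2/M genes were lower in nTregs with AzaC (56.5%, against 16.8% of all genes in either direction). Without nTreg PBS 1 it was 18 (78.3%, against 13.7%), and the G2/M median went from −0.26 to −0.33. Differences below 0 were found for 21 of the 23 G2/M genes in nTregs (58.1% of all genes) and for 23 in CD4 cells (47.2%). In CD4 cells 4 G1/S genes rose, Cdc6 by 0.64, Mcm2 by 0.58, Mcm6 by 0.47 and Orc1 by 0.44 (18.2%, against 1.76% of all genes). Of the G2/M genes 0 passed in limma there, with 6 lower at an unadjusted p under 0.05 (26.1%, against 15.2% of all genes). Without nTreg PBS 1 in the shared spread 7 and 0 passed, where 4.71% of all genes were called. Mki67 did not pass in either (−0.04 in nTregs, −0.01 in CD4 cells).

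Genes induced by p53, the transcription factor that Atm and Chek2 stabilise, rose with AzaC in CD4 cells in 8 of 22 cases (36.4%, against 1.76% of all genes called). Polk stands both in this list and among the other repair genes above. It is counted in both for this comparison and for that of the populations under PBS. Cdkn1a, the inhibitor p21, rose by 1.95, the death receptor Tnfrsf10b by 1.05, Zmat3 by 0.99 and Ccng1 by 0.67. In nTregs 0 of 22 passed in limma (1 without nTreg PBS 1). At an unadjusted p under 0.05 stood 9, 8 of them higher with AzaC (40.9%, against 16.8% of all genes). Under PBS 8 of the 22 were already higher in nTregs than in CD4 cells (36.4%, against 8.01% of all genes). Cdkn1a was higher by 2.05 and Plk2 by 1.92. With AzaC 5 of the 22 were higher (22.7%, against 6.75%). Without nTreg PBS 1 the counts were 11 and 6, with 7.25% and 11.1% of all genes called. The effect of AzaC on Cdkn1a differed between the populations (−1.62, SE 0.16, adjusted p = 0.00126). Like Ddias, and like 25.6% of all genes, Cdkn1a had its lowest mean in CD4 cells under PBS, 9.78 against 11.73 with AzaC. Cdkn1a stood at 11.82 and 12.15 in nTregs under PBS and with AzaC. The AzaC differences in nTregs had opposite signs (Cdkn1a 0.33, Ddias −0.35), and neither passed. A link between Ddias and the p53-induced genes was not tested.

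**Figure D5:**
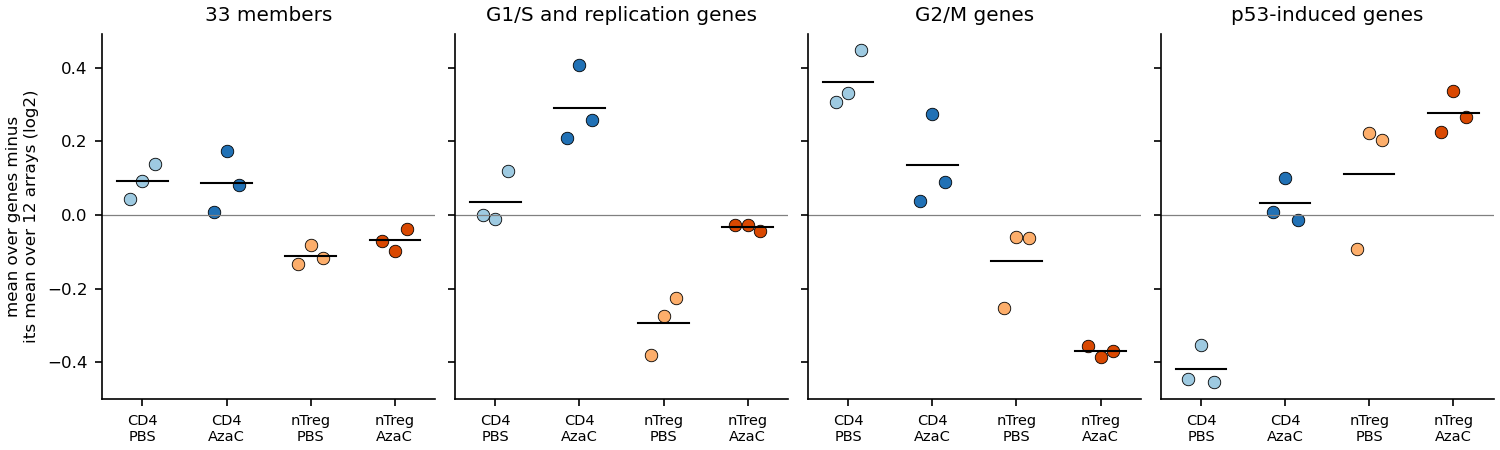
Mean log2 signal over the genes of 4 lists (33 members, 22 G1/S and replication genes, 23 G2/M genes and 22 p53-induced genes) in each array, minus the mean over all 12 arrays; points are arrays and bars are means of 3. The members and both cell cycle lists are lower in nTregs than in CD4 cells under each condition, and the p53-induced genes are lowest in CD4 cells under PBS.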

How the data were processed

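Total RNA of sorted T cells was labelled with the WT Pico kit and hybridised to Affymetrix arrays, per the labels' protocols. The deposited values are log2 signals, and were used as deposited. The submitters' processing notes name Affymetrix Expression Console and RMA, with no version. RMA applies quantile normalization across arrays, so a shift common to all genes cannot be seen. Of 41345 rows, 23521 carried exactly 1 gene symbol, and the brightest row per gene left 22180 genes. The tool limma 3.58.1 (R 4.3.3) was used to fit 1 mean for each group over the 12 arrays (8 residual degrees of freedom), checked on simulated data, with 5 comparisons and Benjamini-Hochberg adjustment over all genes. The number of arrays limits the precision: the median SE was 0.13, and 0.18 for the difference between AzaC effects. Named were all members called, the 2 largest differences not called per AzaC comparison, up to 4 called genes per other list and comparison, and Foxp3, Cd4, Cd8a and Mki67. Motif matches were shown for those of the 4 members with most calls (ties by smallest adjusted p) that had a promoter window, and for TTTCCCGC. Members, lists and rules were chosen with earlier results of these data known. Alternatives were a filter on dim genes, median centring, repeated quantile normalization, each array left out, the mean over a gene's rows, only the groups compared, a replicate block, array weights, and a variance trend with robust moderation.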

Additional observations from a re-analysis of the deposited data

Results flagged for a closer look

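The effect of AzaC on Ddias differed between the populations, by −0.96 on the log2 scale (nTregs minus CD4 cells), with a rise of 0.61 in CD4 cells and a difference of −0.35 in nTregs that did not pass. The effect on Cdkn1a differed in the same direction, by −1.62. Ddias was picked out as the only member for which the difference between the effects itself passed the test over all genes. Cdkn1a, a p53-induced gene and not a member, was added by name, and it passed too. In all, 45 of the 22180 genes passed.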

How the results depend on the processing

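Of 16 member results that passed, 2 passed under every alternative and without each array, and 0 changed sign. The number of members called with AzaC in nTregs (1) was 0 with median centring, with the replicate block and in the fit of only the groups compared, 2 with repeated quantile normalization, 3 with array weights (5.82% of all genes, 2.02% as reported), and 0 to 1 without single arrays. In CD4 cells (1) it was 2 with the filter on dim genes (5.00% of all genes tested, 1.76% as reported) and with repeated quantile normalization (1.54%), 5 with array weights (5.82%), and 0 to 2 without single arrays. For the difference between the effects (1) it was 0 with median centring and 0 to 1 without single arrays. Between populations under PBS (6) it was 10 with the filter (18.2% of all genes tested, against 8.01%), 11 with median centring (9.01%), 1 in the fit of only the groups compared (2.92%), and 2 to 7 without single arrays. With AzaC (7) it was 11 with repeated quantile normalization (6.83% of all genes, against 6.75%), 14 with array weights (15.8%), and 2 to 9 without single arrays. The cause was not tested. Same-numbered arrays deviated together only weakly (correlations −0.10 to 0.19, 3 of 18 pairs over 0.1, 11 of 18 best matched by their own number). Between CD4 cells and nTregs the best match had the same number for 1, 2 and 3 under PBS, and likewise with AzaC. Between PBS and AzaC in CD4 cells it had the same number for none. Whether equal numbers share a mouse or a culture cannot be told from these values. The replicate block fits an effect of each number shared by all 4 groups, and does not model a pairing within a treatment. With the replicate block 0, 1, 1, 7 and 6 members were called in the 5 comparisons. Blm with AzaC in nTregs (adjusted p = 0.0618) and Exo1 between populations with AzaC (0.0547) no longer passed. Repeated quantile normalization turned the members' median in CD4 cells with AzaC from −0.05 to 0.01, as did leaving out CD4 AzaC 1, and that of the difference between effects from 0.10 to −0.06. Median centring moved the share of higher among called genes in the 5 comparisons from 70.3% to 82.4%, 47.1% to 27.3%, 71.1% to 92.1%, 48.6% to 29.2% and 67.6% to 75.8%. The added values without nTreg PBS 1 were chosen after seeing the data.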
